A study of Homo sapiens with 6 samples.

Results

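The 7 genes described here are the cyclin genes CCNA2, CCNB1, CCND1, CCND2 and CCNE1 and the CDK inhibitor genes CDKN1A and CDKN1B, which were chosen as cell cycle mRNAs known to be regulated by HuR. Their members are PAR-CLIP sites that lie on the strand of each gene with their midpoint inside its span in GENCODE release 44 mapped to GRCh37, the same build as hg19. The 7 genes held 1770 of the 10639684 sites found over the 6 libraries, and they are 7 of 20163 protein-coding genes. By library, these were 235 sites in G20, 52 in G35, 65 in G45, 308 in HuR replicate 1, 523 in HuR replicate 2 and 587 in Total. Here a site, called a group in the deposited tables, is a genomic interval covered by at least 1 read, and its value is a count of reads.

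All 6 libraries came from HEK293, an established human embryonic kidney cell line, which was fed the nucleoside analog 4-thiouridine (4SU), crosslinked with long-wave UV light and treated with RNase T1. HuR replicates 1 and 2 are FLAG immunoprecipitates of FLAG-tagged HuR from cells that express it stably from a doxycycline-inducible construct, so the tagged protein is an added copy. G20, G35 and G45 are background libraries from FLAG-GFP cells handled in the same way, cut from the gel at about 20, 35 and 45 kDa, with 1 library each. Total is 1 library from 4SU-fed, crosslinked and digested lysate that was not immunoprecipitated and was depleted of rRNA. Nothing in the labels states that the 2 HuR replicates were separate cultures, so p-values measure only the spread between these libraries, which may be technical.

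Cyclins are the regulatory subunits that switch on the cyclin-dependent kinases, and they rise and fall in turn through the cell cycle. CDKN1A (p21) and CDKN1B (p27) are inhibitors that bind cyclin-CDK complexes. HuR, encoded by ELAVL1, is an RNA-binding protein known for U-rich and AU-rich elements in 3'UTRs, and it is known to act on the stability and translation of the mRNAs it binds.

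The sequences below are taken from the 3'UTR site with the most reads in HuR replicate 2 of each gene, because they show where HuR reads were most numerous. Each is the site or its 30 bases richest in U, written as RNA from 5' to 3' on the strand of the mRNA, with runs of 4 or more U and the pentamer AUUUA in capitals. All 2504 site sequences of the 7 genes, both strands and clusters included, matched GRCh37 at the deposited positions.
CCNA2, chr4:122737979-122738008, minus strand: auuggcagcucucuucUUUUUUcuucUUUU
CCNB1, chr5:68473921-68473950, plus strand: auucuaaguuAUUUAcUUUUaccacuauuu
CCND1, chr11:69468533-69468562, plus strand: cauaauuauuauuauuauuauuauaacaag
CCND2, chr12:4410836-4410865, plus strand: UUUUguucaguuuggUUUUUUUUUUUUUUU
CCNE1, chr19:30315174-30315199, plus strand: cuauaucuauccaUUUUUUaauaaag
CDKN1A, chr6:36653786-36653815, plus strand: uuccuaagagugcugggcaUUUUUaUUUUa
CDKN1B, chr12:12874497-12874526, plus strand: uuuauucucauuugggagaucuggugaucu
In 5 of the 7 genes (CCNA2, CCNB1, CCND2, CCNE1 and CDKN1A) the printed bases hold a run of 4 or more U. The CCND1 site is a repeat of AUU, and the printed CDKN1B bases hold neither form. Over all protein-coding 3'UTRs in HuR replicate 2, 42.1% of sites held such a run, and 74.0% of sites with at least 25 reads. Those shares are over whole sites, while the printed bases were picked for their U, so the 5 of 7 is a description only.

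Summed over the 7 genes, HuR reads lay mainly in 3'UTRs. With introns included, 3'UTRs held 73.2% of the reads in HuR replicate 1 and 82.7% in HuR replicate 2. Introns held more reads than the 3'UTR for CCNB1 in HuR replicate 1 (67 against 38) and CDKN1A in HuR replicate 2 (107 against 90). The same held for CCNE1 in HuR replicates 1 (9 against 2) and 2 (76 against 4). In every other case the 3'UTR held more. Of the exonic reads of the 7 genes together (coding sequence, or CDS, and UTRs), 93.2% lay in 3'UTRs in HuR replicate 1 (95% Wilson interval 91.0 to 94.9, 646 reads) and 96.2% in HuR replicate 2 (95.8 to 96.6, 9407 reads). The share was 34.5% in G20 (31.1 to 38.1, 698 reads), 44.3% in G35 (37.7 to 51.2, 203 reads) and 66.0% in G45 (59.8 to 71.6, 244 reads). In Total it was 41.7% (40.4 to 42.9, 6017 reads). Both HuR libraries lay above the other 4, and their intervals did not overlap any of the others. The genes weigh differently in these sums. CCND2 gave 6065 of the 9407 reads of HuR replicate 2. CCNB1 gave 2465 of the 6017 reads of Total, 1804 of them at 1 CDS site. Without the site with the most reads of each gene in each library, the HuR shares were 91.6% and 94.9%. The shares of G20, G35, G45 and Total were then 39.6%, 45.3%, 61.6% and 60.4%. Over all protein-coding genes the share was 42.1% in HuR replicate 1, 84.3% in HuR replicate 2, 23.1 to 33.9% in the slices and 34.9% in Total. The median over single genes with at least 20 exonic reads was 83.3% in HuR replicate 1 and 84.4% in HuR replicate 2 and no test set the 7 genes against the others. These reads carried no molecular identifiers, and the intervals here cover counting error only. With 2 HuR libraries against 3 slices an exact permutation test cannot reach 0.05, so no test was made of the share.

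**Figure D1:**
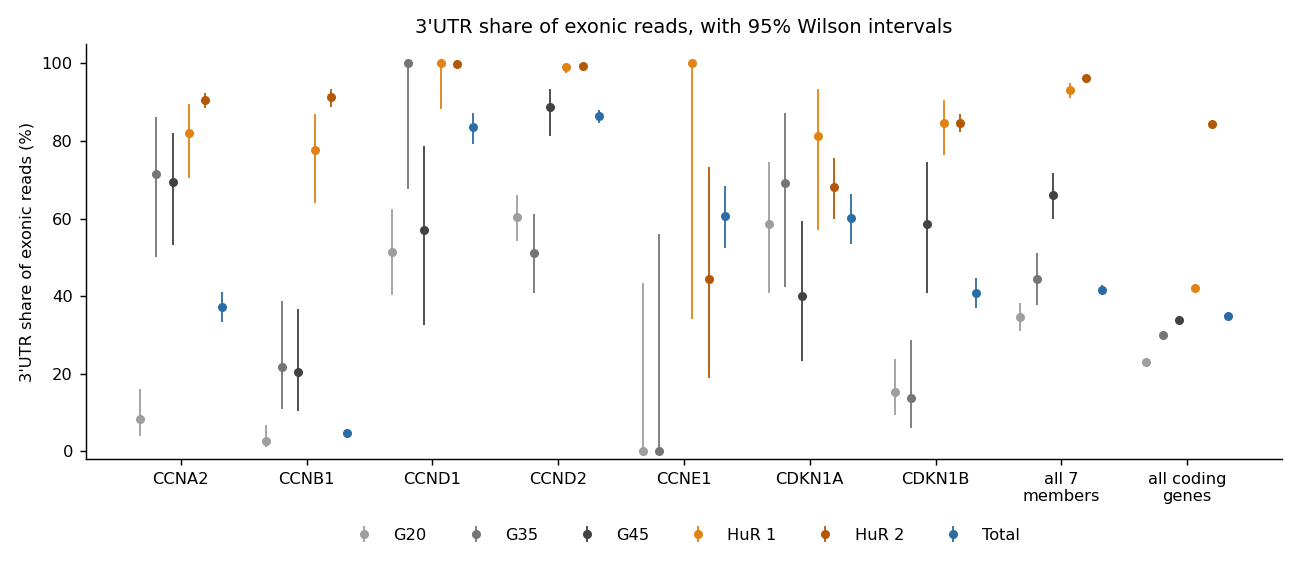
Share of exonic reads that lay in the 3'UTR (y axis, percent) for each gene, for the 7 members together and for all protein-coding genes, in each of the 6 libraries (colours). Bars are 95% Wilson intervals; both HuR points of the 7 members together sit above 93%, and the other 4 libraries lie between 34.5 and 66.0%.

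Among the mitotic cyclins, CCNB1, which with CDK1 drives entry into mitosis, had the lowest 3'UTR share in Total. Its 3'UTR share was 77.6% in HuR replicate 1 and 91.3% in HuR replicate 2, against 2.74% in G20, 21.9% in G35, 20.6% in G45 and 4.79% in Total. CCNA2, which acts in S phase and before mitosis, had 82.0% and 90.6% in the HuR libraries, 8.24% in G20, 71.4% in G35, 69.4% in G45 and 37.2% in Total. The HuR replicate 1 interval of CCNA2 (70.5 to 89.6) overlapped those of G35 and G45. For the cyclins of G1, the CCND2 share was 99.0% and 99.4% in the HuR libraries, 60.3% in G20, 51.1% in G35, 88.7% in G45 and 86.3% in Total. CCND1 had 100% in HuR replicate 1 and 99.8% in HuR replicate 2, but also all 8 exonic reads of G35. For CDKN1B the share was 84.7% in both HuR libraries, 15.2% in G20, 13.9% in G35, 58.6% in G45 and 40.8% in Total. CDKN1A did not separate, with 81.2% and 68.2% in the HuR libraries, 58.6% in G20, 69.2% in G35, 40.0% in G45 and 60.1% in Total. CCNE1, the partner of CDK2 at the G1/S transition, had 2 and 9 exonic reads in the HuR libraries, too few for a share to be read.

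The levels below are reads per 1000000 exonic reads of protein-coding genes, a scale on which 3 reads are worth 3.65 in G20, 7.87 in G35, 8.51 in G45, 4.12 in HuR replicate 1, 0.873 in HuR replicate 2 and 0.663 in Total. CCND2 had the highest 3'UTR level, 196 in G20, 121 in G35, 267 in G45, 531 in HuR replicate 1, 1754 in HuR replicate 2 and 314 in Total. Both HuR libraries lay above the other 4, and HuR replicate 2 lay above HuR replicate 1. The 3'UTR level of CDKN1B was 17.0 in G20, 13.1 in G35, 48.2 in G45, 114 in HuR replicate 1, 218 in HuR replicate 2 and 54.4 in Total. For CCNB1 it was 4.86, 18.4 and 19.8 in G20, G35 and G45, 52.2 and 149 in HuR replicates 1 and 2, and 26.1 in Total. CDKN1B and CCNB1 thus showed the same order as CCND2, with both HuR libraries above the other 4. In bulk libraries such as these, fewer cells that carry an mRNA and less of it per cell cannot be told apart.

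CCNA2 and CCND1 were set apart from the rest by HuR replicate 2 alone. The 3'UTR level of CCNA2 was 8.51 in G20, 39.4 in G35, 70.9 in G45, 68.7 in HuR replicate 1, 238 in HuR replicate 2 and 50.2 in Total. HuR replicate 1 lay just below G45. The 3'UTR level of CCND1 was 46.2 in G20, 21.0 in G35, 22.7 in G45, 39.8 in HuR replicate 1, 248 in HuR replicate 2 and 61.9 in Total. HuR replicate 1 lay below G20 and Total. CDKN1A was flat, at 20.7 in G20, 23.6 in G35, 28.4 in G45, 17.9 in HuR replicate 1, 26.2 in HuR replicate 2 and 29.0 in Total, so its groups overlapped. The 3'UTR of CCNE1 had 0 reads in each slice, 2 and 4 reads in HuR replicates 1 and 2, and 85 reads in Total. Its HuR levels of 2.75 and 1.16 were under what 3 reads are worth in any slice, so a difference from the slices was not detectable at this depth, and its level in Total was 18.8.

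**Figure D2:**
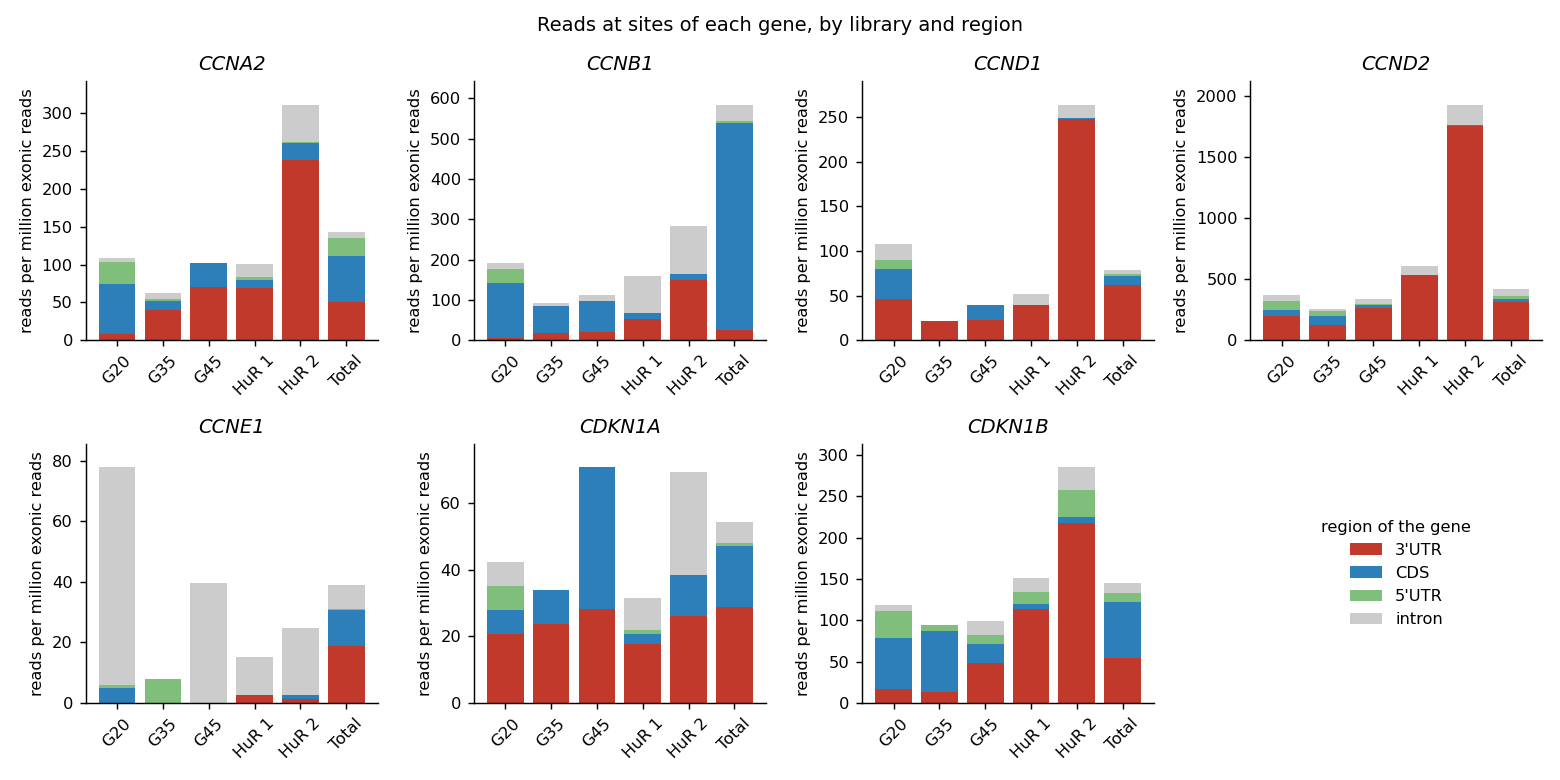
Reads of each gene on the scale of exonic reads (y axis, reads per 1000000 exonic reads, a different scale in each panel) in the 6 libraries, stacked by region: 3'UTR, CDS, 5'UTR and intron. In HuR replicate 2 the red 3'UTR part makes up most of the CCND2 and CCND1 bars, while in Total the CDS part makes up most of the CCNB1 bar.

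By number of genes, both HuR libraries were above every slice in the 3'UTRs of 4 of the 7 genes (CCNB1, CCND2, CCNE1 and CDKN1B), against 42.6% of all 12082 3'UTRs with at least 10 reads over the libraries. Both lay above Total in 4 genes (CCNA2, CCNB1, CCND2 and CDKN1B), against 36.0%, and below Total in 2 genes (CCNE1 and CDKN1A), against 32.3%. Both lay above all 4 other libraries in 3 genes (CCNB1, CCND2 and CDKN1B), against 25.2%. The counts of 4, 4, 2 and 3 of 7 lie near the background. CCNE1 counts among the first 4 on 2 and 4 HuR reads. Scaled by all reads of the library instead, 6 of the 7 lay above every slice, against 57.0% of all 3'UTRs, and 3 above Total, against 21.0%.

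Per kilobase of 3'UTR, the level in HuR replicate 2 was 328 for CCND2, 242 for CCNB1, 199 for CCNA2, 75.3 for CCND1, 66.3 for CDKN1B, 17.0 for CDKN1A and 2.16 for CCNE1, in reads per 1000000 exonic reads and per kilobase. In HuR replicate 1 the order was CCND2 (99.4), CCNB1 (84.8), CCNA2 (57.4), CDKN1B (34.7), CCND1 (12.1), CDKN1A (11.6) and CCNE1 (5.10). The order of the top 3 genes and of the bottom 2 was the same in both, and CCND1 and CDKN1B changed places. In Total the 7 genes lay much closer together on this scale, between 16.5 for CDKN1B and 58.7 for CCND2. The length used for CDKN1B, 3286 bp, includes bases that are intronic in its canonical transcript, which lowers its value per kilobase where they hold few reads. Its place in these orders on the canonical 3'UTR alone was not computed. Among the 15555 genes with a 3'UTR read, CCND2 was at the 99.2 percentile of reads per length in HuR replicate 2 and at 96.1 in Total, CCNB1 was at 98.8 and 93.6, and CCNE1 was at 39.6 and 91.9.

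To test whether 3'UTR reads differed between HuR and background, edgeR's quasi-likelihood test was fitted to all gene regions, with p-values adjusted over all 49013 of them by the Benjamini-Hochberg method. It called 0 of the 7 3'UTRs, where it called 2.22% of all 3'UTRs as higher in HuR and 1.08% as lower. At an edgeR unadjusted p under 0.05 there were 2 of 7 (CCND2 and CDKN1B), beside 2081 of all 12082 3'UTRs. DESeq2 called 0 of 7, where over all 3'UTRs it called 328 higher and 403 lower. The log2 fold changes of HuR over background were 1.75 for CCND2 (SE 0.76, adjusted p = 0.138), 1.98 for CDKN1B (SE 0.92, adjusted p = 0.159) and 2.10 for CCNB1 (SE 1.12, adjusted p = 0.228). They were 1.31 for CCND1, 1.25 for CCNA2 and -0.84 for CDKN1A, and no fold is given for CCNE1, whose slices had no read. The median of the 7 was 1.75, beside 0.84 over all 3'UTRs tested. Without CCNE1, whose fitted value is no bound, the median of the other 6 was 1.53. With library totals in place of TMM factors (edgeR's scaling between libraries) the median over all 3'UTRs moved to 2.37, the calls over all 3'UTRs went from 268 higher and 130 lower to 368 higher and 2 lower, and the value of CDKN1A turned to 0.44. Without G45, CDKN1B was called (adjusted p = 0.0300). In counts simulated from the mean levels and depths of these libraries, the test recovered 1% of 4-fold and 56% of 16-fold changes, and made 1 false call. The simulation had a smaller spread than was fitted here (common dispersion 0.736), no slice differences, and changes only in better covered features. It therefore cannot give the recovery or the false calls of the real data.

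Against Total, edgeR called 0 of 7 3'UTRs, where it called 0.356% of all 3'UTRs higher and 1.08% lower. At an edgeR unadjusted p under 0.05 there were 0 of 7, beside 977 of all 12082 3'UTRs. DESeq2 called 0 of 7, where over all 3'UTRs it called 50 higher and 117 lower. The log2 fold changes of HuR over Total ranged from -4.37 (CCNE1, SE 2.65, adjusted p = 0.426) to 0.70 (CCNB1, SE 1.48, adjusted p = 0.862). Their median was 0.34, beside -0.80 over all 3'UTRs tested. Several of these values changed sign with the settings. Without HuR replicate 2, CCNA2 and CCND2 were at -0.35 and -0.045, and without HuR replicate 1 CCND1 was at 0.83.

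In the coding sequences, the mitotic cyclin CCNB1 and the inhibitor CDKN1B were lower in HuR than in both kinds of control. CCNB1 had 113, 25 and 27 CDS reads in G20, G35 and G45, 11 and 49 in HuR replicates 1 and 2, and 2323 in Total. On the scale of exonic reads these were 137, 65.6 and 76.5 in the slices, 15.1 and 14.3 in HuR, and 513 in Total, so both HuR libraries were below every other library. CDKN1B had CDS levels of 62.0 in G20, 73.5 in G35, 22.7 in G45, 5.49 in HuR replicate 1, 6.69 in HuR replicate 2 and 68.3 in Total. Both were called lower in HuR than in background, CCNB1 with a log2 fold change of -3.41 (SE 0.92, edgeR adjusted p = 0.0104) and CDKN1B with -3.86 (SE 1.20, edgeR adjusted p = 0.0299). All 7 genes had a negative CDS log2 fold change, with a median of -3.41, beside -2.37 over all coding sequences tested, of which 11.9% were called lower and 0.415% higher. With library totals the median over all coding sequences was -0.67, with 44 called higher and 4 lower in place of 55 and 1572, and neither gene was called. Both HuR libraries lay below every slice in 3 of the 7 genes (CCNB1, CCND2 and CDKN1B), against 24.6% of all coding sequences, and below Total in all 7, against 76.1%. The 2 of 7 calls rest on the settings, since the call of CCNB1 was lost in 9 of 14 alternatives and that of CDKN1B in 10. Without G20 their adjusted p was 0.0870 and 0.120.

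Against Total, CCNB1 (log2 fold change -6.26, SE 1.12, edgeR adjusted p = 6.8e-05) and CDKN1B (-4.63, SE 1.35, edgeR adjusted p = 0.0229) were again the 2 of 7 called lower, beside 12.7% of all coding sequences called lower and 0.498% higher. In Total 1804 of the 2323 CDS reads of CCNB1 lay at 1 site, chr5:68473065-68473125 on the plus strand, which had 18.1 conversion events per 100 reads. Few reads lay there in any other library, slices included. HuR replicate 2 and G35 had no read at this site, G45 had 3, and HuR replicate 1 and G20 had 4 each. Without that site the CDS level of CCNB1 in Total was 115, which is still above both HuR libraries. That level lay inside the span of the slices on all their CDS reads, from 65.6 (G35) to 137 (G20). The call of CCNB1 was lost in 6 of 14 alternatives and that of CDKN1B in 9.

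The 5'UTRs were poorly covered. CCND2 had 65, 15 and 4 5'UTR reads in G20, G35 and G45, 0 and 3 in HuR replicates 1 and 2, and 110 in Total. It was called lower in HuR than in background (log2 fold change -6.88, SE 1.68, edgeR adjusted p = 0.00388) and than in Total (-6.39, SE 1.76, edgeR adjusted p = 0.0136), the only 5'UTR of the 6 tested, where 2.85% and 0.898% of all 5'UTRs were called lower and 0.589% and 0.491% higher. Each call was lost in 8 of 14 alternatives. DESeq2 called CCND2 in both comparisons and also CCNB1 against background. Of all 7125 5'UTRs it called 696 lower and 24 higher against background, and 75 lower and 28 higher against Total. CCNB1 had 29 5'UTR reads in G20 and none in G35, G45 or HuR, and it was not called by edgeR (adjusted p = 0.0660). No fold is given for it, since both HuR replicates were at 0. CDKN1B had 27, 3 and 4 reads in G20, G35 and G45, 11 and 112 in HuR replicates 1 and 2 and 48 in Total. Its log2 fold change over background was -0.42 (SE 1.43, edgeR adjusted p = 0.882). Of its 112 reads in HuR replicate 2, 100 lay at 1 site, chr12:12870647-12870752 on the plus strand, whose 30 bases richest in U are printed here because the site holds most of the 5'UTR reads of HuR replicate 2.
CDKN1B 5'UTR, chr12:12870704-12870733, plus strand: gcgcuuugUUUUguucggUUUUgUUUUUUU
That site had 9, 0 and 4 overlapping reads in G20, G35 and G45, 5 of the 11 5'UTR reads in HuR replicate 1 and 22 of 48 in Total.

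Intron reads were called in none of the 7 genes by edgeR or DESeq2 in either comparison. Over all introns, edgeR called 6.46% as higher than background and 1.58% as lower, and 2.13% as higher than Total and 0.0967% as lower. Of all 16550 introns, DESeq2 called 1378 higher and 560 lower against background, and 621 higher and 14 lower against Total. At an edgeR unadjusted p under 0.05 there was 1 of 7 (CCNB1) against background, beside 4256 of all introns. Against Total there were 0 of 7, beside 1301. On the scale of exonic reads both HuR libraries lay above every slice in 4 of the 7 genes (CCNA2, CCNB1, CCND2 and CDKN1A), against 51.7% of all introns, and above Total in all 7, against 90%. Scaled by all reads, they lay above Total in 3 of the 7 (CCNA2, CCNB1 and CCND1), against 83.2%, and above every slice in 6, against 66.8%. The introns of CCNB1 held 12, 3 and 6 reads in G20, G35 and G45, 67 and 409 in HuR replicates 1 and 2, and 180 in Total, with a log2 fold change over background of 2.28 (SE 1.06, adjusted p = 0.160). Its level on the scale of exonic reads was 92.0 and 119 in HuR against 7.87 to 17.0 in the slices. CCNE1 had 59 intron reads in G20, 0 in G35, 14 in G45, 9 and 76 in HuR and 36 in Total.

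Crosslinked 4SU is often read as C, and 4SU that was not crosslinked can be too, so T-to-C conversion events are a sign of crosslinking but do not mark a single read as crosslinked. A read can hold more than 1 event. In the 3'UTRs of the 7 genes there were 97.0 events per 100 reads in HuR replicate 1 and 103 in HuR replicate 2, against 35.3 in G20, 68.9 in G35, 42.9 in G45 and 19.8 in Total. Over all protein-coding 3'UTRs the values were 82.2 and 102 in HuR, 29.4, 60.9 and 52.3 in the slices and 19.8 in Total. Among genes with at least 10 3'UTR reads in both HuR libraries, the range was 89.7 (CCND1) to 123 (CDKN1A) in HuR replicate 1 and 98.6 (CCND1) to 109 (CCNA2) in HuR replicate 2. In the coding sequences, where HuR replicate 1 had 29 reads in all, the 7 genes had 82.8 events per 100 reads in that library and 230 events on 230 reads in HuR replicate 2, against 15.8, 71.4 and 72.0 in the slices and 17.6 in Total. Over all coding sequences the values were 18.3 and 73.3 in HuR replicates 1 and 2, 18.8, 36.8 and 39.3 in the slices and 12.3 in Total. The 7 genes thus lay above all genes in G35 and G45 as well as in HuR. In the CDS of CDKN1A, a site at chr6:36653548-36653567 on the plus strand had 35 reads in HuR replicate 2, with all 35 events at 1 location, and 0 reads in HuR replicate 1, 15 in G45, 4 in G35, 3 in G20 and 68 in Total. Its sequence, which has no run of 4 U, is printed because all its events lay at 1 location.
CDKN1A CDS: cggcugaucuucuccaagag

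**Figure D3:**
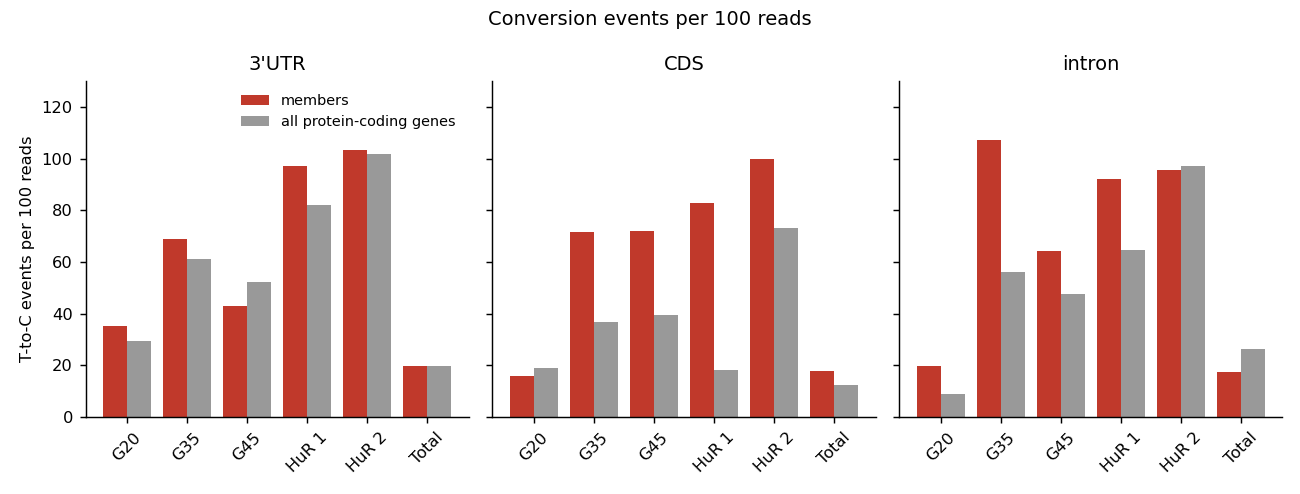
T-to-C conversion events per 100 reads (y axis) in the 3'UTR, CDS and intron sites of the 7 members (red) and of all protein-coding genes (grey), in each library. In 3'UTRs both HuR libraries stand at 97.0 and 103 events per 100 reads for the members, above 68.9 in G35, the highest of the other libraries.

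Reads within a 3'UTR were spread unevenly over its sites. In HuR replicate 2 the site with the most reads held 42.4% of the 3'UTR reads of CCNA2, 40.0% of CDKN1A, 39.5% of CCNB1, 27.1% of CCND2, 22.2% of CCND1 and 19.2% of CDKN1B. CCND2 had 79 sites in its 5347 bp of 3'UTR, of which the first by reads, chr12:4410720-4410917, held 1632 reads and the next, chr12:4410944-4411196, held 760. They span 198 and 253 bp, and in HuR replicate 1 they had 92 and 44 reads. CCNB1 had 2 main sites at chr5:68473909-68473991 and chr5:68473552-68473591, with 202 and 171 reads in HuR replicate 2 and 20 and 6 in HuR replicate 1. With each 3'UTR cut into 3 equal parts, the last part held 70.2% of the CDKN1B reads of HuR replicate 2 and 84.3% of those of HuR replicate 1. In the other libraries it held 85.4% in Total, 78.6% in G20 and all 5 and 17 reads of G35 and G45. Part of the CDKN1B 3'UTR, joined over transcripts, is intronic in its canonical transcript. For CCND2 the first part held 43.7% and 46.0% of the reads of HuR replicates 2 and 1. It held 26.7% in G20, 41.3% in G35, 55.3% in G45 and 34.1% in Total. For CCNA2 the 2 replicates differed, with 54.8% of reads in the middle part in HuR replicate 2 and 52.0% in the last part in HuR replicate 1. Its top site has its midpoint at position 795 of the 1197 bp in HuR replicate 2 and at 809 in HuR replicate 1, on either side of the line between these parts.

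In HuR replicate 1 the site with the most reads was another one in several genes. For CCND2 it was chr12:4410872-4410911, with 67 reads, inside the first site of HuR replicate 2, and for CDKN1B it was chr12:12874748-12874784, with 18 reads, where HuR replicate 2 had 94, G45 had 12 and Total had 23. For CCND1 no site had more than 3 reads in HuR replicate 1, and the first of them, chr11:69468165-69468184, had 50 reads in HuR replicate 2 and none in the slices or Total. The sequences of these 3 sites, and of the third CCND2 site of HuR replicate 2, which had 577 reads there, 13 in HuR replicate 1, 112 in Total and none in the slices, are shown to compare them with the first set.
CCND2, chr12:4410877-4410906, plus strand: aagcuaaagucauccauccuuauucacguu
CDKN1B, chr12:12874754-12874783, plus strand: UUUUcucaUUUUcUUUUcacuucgggcugu
CCND1, chr11:69468165-69468184, plus strand: uauuacagaugccUUUUUUg
CCND2, chr12:4411210-4411239, plus strand: cUUUUgUUUUcauaauaccucacaaccgua
Of these 4, the first has no run of 4 U. In Total the CCNE1 site with the most reads, chr19:30314964-30314982 on the plus strand, had 46 reads without a conversion event and none in any other library, and it has no run of 4 U either.
CCNE1, Total: acucccacaacaacaaaag

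**Figure D4:**
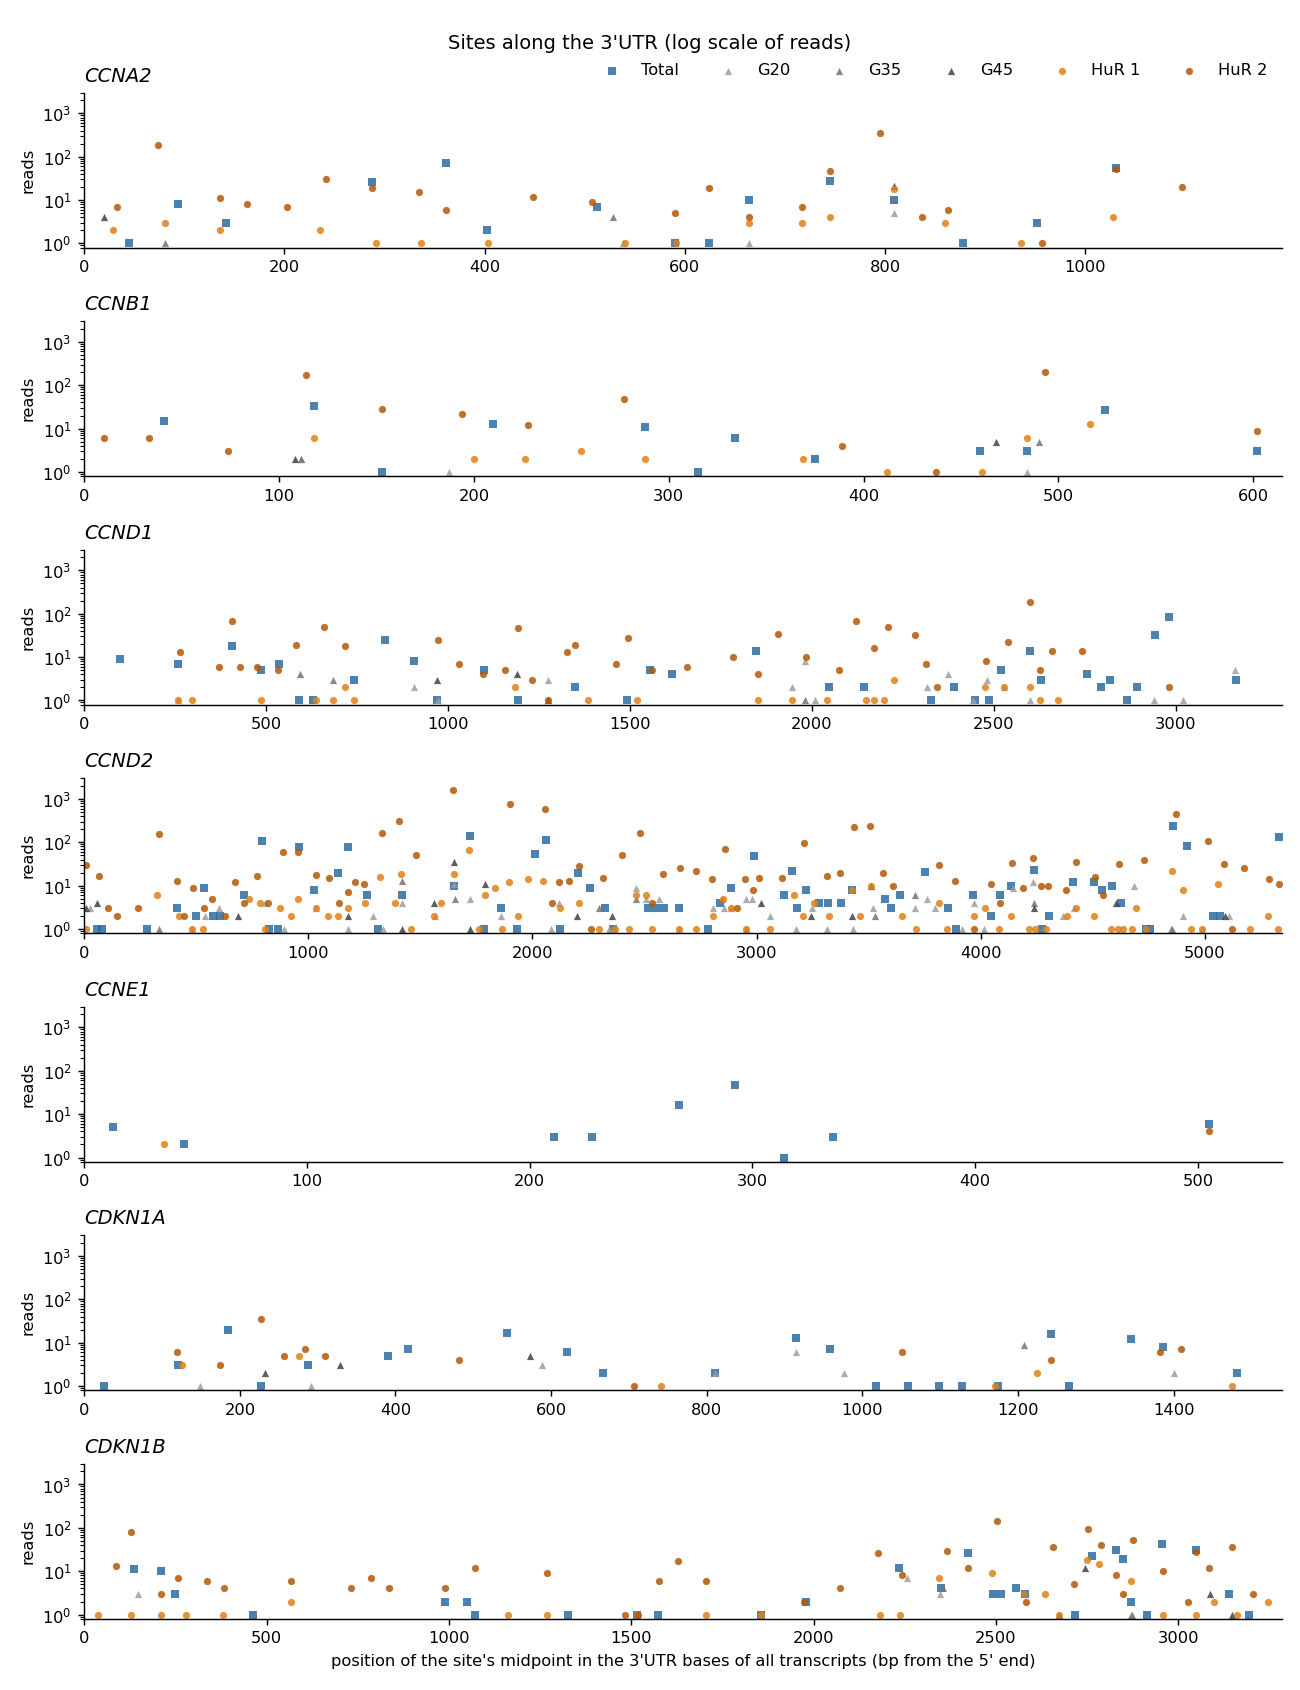
Reads of each site (y axis, log scale) against the position of its midpoint in the 3'UTR of each gene (x axis, bp from its 5' end, all annotated transcripts joined), for the 6 libraries. HuR replicate 2 (dark orange) reaches 1632 reads in CCND2 and 346 in CCNA2, while CCNE1 shows mainly Total sites (blue), up to 46 reads.

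Most HuR replicate 1 sites recurred in HuR replicate 2. Of the 163 3'UTR sites of HuR replicate 1, 140 (85.9%, 95% Wilson interval 79.7 to 90.4) overlapped a site of HuR replicate 2 by at least 1 bp, as did all 31 sites with at least 5 reads. Of the 205 3'UTR sites of HuR replicate 2, which was sequenced more deeply, 117 (57.1%) overlapped one of HuR replicate 1, and these held 91.0% of the reads. Of the intron sites, 35 of 109 (32.1%) in HuR replicate 1 recurred.

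Background sites covered a large part of the same 3'UTRs. Of the 3'UTR reads of the 7 genes, 68.3% in HuR replicate 1 and 75.4% in HuR replicate 2 lay at sites that shared at least 1 bp with a site of G20, G35 or G45 on the same strand. Over all protein-coding 3'UTRs these shares were 49.7% and 49.6%. Over all regions of the 7 genes they were 56.2% and 66.2%, beside 50.2% and 24.7% over all protein-coding gene spans. With clusters in place of sites the all-region shares of the 7 genes were 43.2% and 35.7%. By gene, in HuR replicate 2, the share was 83.7% for CCND2, 77.3% for CCNB1, 71.1% for CDKN1A, 67.3% for CCNA2, 49.9% for CCND1 and 46.6% for CDKN1B, and 0 of 4 reads for CCNE1. By number of 3'UTR sites the overlap was 81 of 163 (49.7%) in HuR replicate 1 and 82 of 205 (40.0%) in HuR replicate 2. Over all protein-coding 3'UTRs it was 21.9% and 19.9% of sites. An example is the CCNA2 site at chr4:122737974-122738000, which had the same boundaries in HuR replicate 1 (18 reads), G35 (10 reads) and G45 (21 reads) and is shown because its U runs are read in background too.
CCNA2, minus strand: cucucuucUUUUUUcuucUUUUcacug
In HuR replicate 2 the site overlapping it held 346 reads. In contrast, the CDKN1B site with the most reads in HuR replicate 2 (144 reads) had no read in any slice and 6 in Total, and the CCND1 site (189 reads) had 1 read in G20, 2 in HuR replicate 1 and 14 in Total.

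Of the 3'UTR sites with at least 5 reads, 25.8% in HuR replicate 1 (8 of 31) and 22.6% in HuR replicate 2 (36 of 159) held UUUUU, searched as TTTTT on the strand of the mRNA, against 15.1% (13 of 86) in Total. Over all protein-coding 3'UTR sites the shares were 28.7%, 26.6% and 9.71%. AUUUA was in 6.45%, 12.6% and 11.6% of the sites of the 7 genes, and either motif in 32.3%, 32.7% and 25.6%, beside 37.1%, 35.2% and 17.3% over all genes. The slices G20, G35 and G45 had 16, 8 and 7 such sites, of which 3, 5 and 5 held either motif. These shares were 18.8%, 62.5% and 71.4%, beside 9.57%, 30.4% and 44.0% over all genes. G35 and G45 thus lay above both HuR libraries, on few sites. By reads, 24.5% of the reads of the 7 genes in HuR replicate 1 and 62.2% in HuR replicate 2 lay at sites with UUUUU, beside 20.6% and 49.3% over all genes. A site that holds a motif is a description only, since longer sites are more likely to hold one, and sites of 1 gene are not replicates. CCNE1, whose 3'UTR is the shortest of the 7 at 538 bp, holds 4 runs of at least 5 T and no ATTTA, while CDKN1B holds 16 and 12 in 3286 bp. Per kilobase, CCNE1 has 7.43 such runs and CDKN1B 4.87, with CCNA2 the highest of the 7 at 7.52. ATTTA occurs 3.65 times per kilobase in CDKN1B.

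CDKN1B depended on the annotation. In HuR replicate 2, 196 of its 749 3'UTR reads (26.2%, 95% Wilson interval 23.1 to 29.4) lay in sites that are intronic in the canonical transcript and 3'UTR only in another transcript, as did 12 of 83 in HuR replicate 1. On the opposite strand of the 7 genes, HuR replicate 1 had 173 of 995 reads (17.4%), of which 104 were at 1 site opposite the 5'UTR of CCND2 without a conversion event. The share on the opposite strand was 3.85% in G20, 12.3% in G35, 9.69% in G45, 2.33% in HuR replicate 2 and 2.08% in Total. Clusters, the deposited subset of sites, numbered 31 in HuR replicate 1, 28 of them in 3'UTRs, and 304 in HuR replicate 2, 162 of them in 3'UTRs. The slices had 8 to 18 and Total had 120.

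The 7 genes lie, in hg19, at chr4:122737599-122745038 (CCNA2, minus strand), chr5:68462962-68474072 (CCNB1), chr11:69455924-69469242 (CCND1), chr12:4378937-4414519 (CCND2), chr19:30302898-30315219 (CCNE1), chr6:36644237-36655114 (CDKN1A) and chr12:12838432-12875303 (CDKN1B), all others on the plus strand. A gene on the opposite strand overlaps CCNA2, CCND1, CCND2, CDKN1A and CDKN1B, and 1 other coding gene on the same strand overlaps CCND2.

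Of 50 other cyclins, CDKs, CDK inhibitors and G1/S or G2/M regulators, 45 had 3'UTR reads enough to be tested. At an edgeR unadjusted p under 0.05 there were 12 of 45, of which 10 were higher in HuR than in background. Over all 3'UTRs there were 2081 of 12082. After adjustment edgeR called 2 of the 45 higher in HuR than in background and none lower. They were CCNI, a member of the cyclin family (log2 fold change 2.53, SE 0.83, adjusted p = 0.0413), and CDK6, a kinase partner of the D cyclins (2.33, SE 0.78, adjusted p = 0.0463). The median of the 45 was 1.39, beside 0.84 over all 3'UTRs, of which 2.22% were called higher. Of 46 tested coding sequences, 1 was called higher (CDKN2A) and 9 lower, with a median of -2.52, beside 0.415% higher, 11.9% lower and a median of -2.37 over all coding sequences. The genes whose 3'UTR levels over the 6 libraries lay nearest to the median of the 7 members, by Euclidean distance of log2 levels, were DIDO1 (distance 0.515), HMGXB4 (0.644) and FBXO22 (0.720) among 15555 genes. The 7 members themselves lay farther from that median, from 1.49 for CDKN1B (rank 163) to 11.0 for CCNE1 (rank 9844).

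Depth differed between the libraries. Site reads summed to between 6187300 in G35 and 38644636 in G20, and the exonic reads of protein-coding genes, on which the levels rest, to between 352716 in G45 and 4524629 in Total. In Total, all 8 markers of HEK293 had reads, at a summed level of 1468, most of it IGF2BP1 (705) and VIM (501). Of the markers of other cell types 4 of 8 had reads, at a summed level of 11.3, most of it ALB (9.06). The HEK293 markers NEFM (0.884), PAX2 (4.86) and KRT18 (8.84) lay below ALB. CD3E, HBB, HBA1 and PECAM1 were at 0.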

How the data were processed

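PAR-CLIP was measured in 6 libraries of HEK293 cells. The authors trimmed adapters, mapped single reads to hg19 with Bowtie (version not given in the sources used here) and ran PARalyzer, which kept uniquely mapping reads with at most 2 T-to-C mismatches. The deposited tables hold, per site, raw counts of reads, conversion locations and conversion events that the authors did not normalize, and a mode score that was not used here. Reads that map to several places are missing from these counts, and CCND2 is the only member with an annotated pseudogene copy (1). Removal of PCR duplicates is not stated.

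Groups tables were used. A site was given to a gene and region by its midpoint, with CDS before 3'UTR, 5'UTR, noncoding exon and intron over all transcripts. Genes that overlap on a strand each received a site, and 1 other coding gene overlaps CCND2. Reads were summed per gene and region. Features with at least 10 reads over the 6 libraries (49013) entered 1 edgeR 4.0.16 quasi-likelihood fit (R 4.3.3) with groups background, HuR and Total, TMM factors and a threshold of 0.05 on adjusted p. The slices are different gel regions, so their spread holds slice differences, and Total, a single library, is assumed to vary like the others. The TMM factors were 0.209 for G20 and 0.856 to 2.28 for the others. The fit was tested on simulated data, which had less spread than these libraries. Intervals are 95% Wilson intervals and floors are 3 reads. Python 3.11.15 was used for the rest.

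Alternatives were DESeq2 1.42.0, library totals, read filters, clusters, sites with conversions, the region rule, left-out libraries and, added after the data were seen, canonical transcripts only. Sites named are those with the most 3'UTR reads per member in each HuR library, and any other was chosen after its values were seen. From the list of other cell cycle genes, called 3'UTRs are named. The members and lists were chosen with earlier results of these data known.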

Additional observations from a re-analysis of the deposited data

How the results depend on the processing

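No paired analysis was possible because only HuR has numbered replicates. Of the 7 3'UTRs, edgeR called 1 against background in place of 0 when features with at least 1 read were kept (CCND2, adjusted p = 0.0458) and 1 without G45 (CDKN1B, adjusted p = 0.0300). Of the CDS calls against background (2 of 7), 0 remained with library totals or with at least 1 or 50 reads over the libraries. None remained with clusters, with sites of at least 5 reads, with sites that hold a conversion or without G20. DESeq2 called 4 of 7, where of all 13256 coding sequences it called 3271 lower and 17 higher. Against Total, the 2 CDS calls became 0 with library totals, at least 50 reads, clusters, sites of at least 5 reads and sites with a conversion, 1 with at least 1 read and 1 without G20, and 0 to 1 without a HuR replicate. Library totals in place of TMM factors moved the median log2 fold change over background from 0.84 to 2.37 in all 3'UTRs and from -2.37 to -0.67 in all CDS. The share of exonic HuR reads in 3'UTRs (mean 94.7%) was 98.5% with clusters and 98.4% and 99.0% at sites of at least 5 and 25 reads. The share of HuR reads over background sites in all regions (mean 61.2%) was 39.4%, 72.6% and 90.4% under these settings, 53.4% without the top site of each gene and 46.5% without G20. The share of 3'UTR sites with UUUUU or AUUUA (mean 32.5%) was 31.4% with clusters, 24.9% at sites of at least 1 read, 24.1% at sites of at least 25 reads (0 of 1 site in HuR replicate 1 and 28 of 58, or 48.3%, in HuR replicate 2), 33.0% without top sites, 53.5% with UUUU, 36.9% with AAUUU or UAUUU for AUUUA, and 47.5% weighted by reads. Log2 fold changes reversed as follows, none of them called. Against background, CDKN1A was at 0.44 with library totals, and CCND1 ranged from -0.10 to 2.70 without a HuR replicate. Against Total, library totals gave -0.10 for CCNA2 and -0.083 for CDKN1B, clusters gave -0.10 for CCNA2, sites with a conversion gave -0.43 (CCNA2), -0.069 (CCNB1), -0.17 (CCND2) and -0.13 (CDKN1B), and canonical transcripts gave -0.18 for CDKN1B. CCND1 was at 0.029 with DESeq2, 0.14 with at least 1 read, 0.14 without G20 and 0.15 without G45. Without a HuR replicate, CCNA2 ranged from -0.35 to 1.08, CCND1 from -1.44 to 0.83 and CCND2 from -0.045 to 1.31. Against background, CCNE1 had no value with clusters or sites of at least 5 reads. The cause of these shifts was not tested.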
